A study of Homo sapiens with 12 samples.

Results

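The 10 genes described here encode proteins that break down or make heme, store iron in ferritin, and carry or sense iron. They were HMOX1 and BLVRB (heme breakdown), FECH (heme synthesis), FTH1, FTL and NCOA4 (iron storage), TFRC and STEAP3 (iron uptake), SLC40A1 (iron export) and IREB2 (iron sensing). They were chosen by name and role, with earlier results of these data known, and are 10 of the 55242 genes with counts once rRNA genes were removed. The RNA came from Hs 578T, a TNBC cell line, after lentiviral transduction with GFP (GFP cells) or with full-length NRF2 (NRF2 cells). Both were grown for 8 h in medium with 0.8 mM cystine (with Cyss) or in the same medium without it (without Cyss), with 3 libraries in each of the 4 groups. Both media contained 10% serum. NRF2 was expressed on top of the cells' own gene, and the same GFP cells served as the controls of both media. The labels number the libraries of a group but do not say whether they came from separate cultures, so p-values measure the spread between these libraries, which may be technical.

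NRF2 is a transcription factor that dimerizes with small MAF proteins on antioxidant response elements (AREs) and is held low by KEAP1, and it is known to regulate HMOX1, the ferritin genes and other heme and iron genes. BACH1 is a heme-sensing repressor that competes for the same elements. Iron regulatory proteins, 1 of which is encoded by IREB2, bind iron responsive elements (IREs), short RNA hairpins, when iron is low. On a hairpin before the coding sequence they block translation, as in the ferritin transcripts and SLC40A1, and on hairpins after it they protect the transcript from decay, as in TFRC. Counts of RNA show the second effect and not the first.

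The hairpins are shown because they tell which of the 10 transcripts carry the element. GENCODE 44 canonical transcripts on GRCh37, the build to which the reads had been mapped, were searched for a C, 5 bases, CAGTGN and 5 bases that pair with the first 5, with G-U pairs allowed. Of the 10 genes, 4 held a match in a UTR. A 5′ UTR match was found in 0.0905% of the 19894 protein-coding transcripts searched and a 3′ UTR match in 0.613%. Each window is 30 bases of the transcript strand, with the 6-base loop in capitals.

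FTH1, 5′ UTR, chr11:61735045-61735074 (-): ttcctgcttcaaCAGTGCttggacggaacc
FTL, 5′ UTR, chr19:49468592-49468621 (+): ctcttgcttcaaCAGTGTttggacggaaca
SLC40A1, 5′ UTR, chr2:190445386-190445415 (-): caacttcagctaCAGTGTtagctaagtttg
TFRC, 3′ UTR, chr3:195777849-195777878 (-): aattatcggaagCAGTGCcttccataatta
TFRC, 3′ UTR, chr3:195777445-195777474 (-): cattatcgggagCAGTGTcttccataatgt
TFRC, 3′ UTR, chr3:195777380-195777409 (-): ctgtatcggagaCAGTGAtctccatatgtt
TFRC, 3′ UTR, chr3:195777333-195777362 (-): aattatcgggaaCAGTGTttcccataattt

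The ferritin windows shared 26 of 30 bases, among them the 10 of the stem, and pairs of TFRC windows shared between 19 and 25 of 30. No match says only that these letters were not in the transcript searched.

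The second set of sequences is a single form of the core of the ARE, TGACTCAGC, which was searched on both strands in the 10 kb before each canonical start site. This form contains a TGACTCA that AP-1 proteins also bind. Other forms of the core were not searched. HMOX1 held 4 matches and FTL, FTH1 and FECH 1 each, so that 4 of the 10 genes had at least 1, against 12.8% of 19894 protein-coding genes. Genes with at least as many matches as HMOX1 made up 0.00503% of all genes, which is HMOX1 itself. Of the 4 HMOX1 matches, 3 lay close together, between 8972 and 9087 bases before the start site in GRCh37, where HMOX1 is on the plus strand, in a stretch of repeats. Matches are in capitals and each is printed on its gene's own strand. Where the capitals read GCTGAGTCA, TGACTCAGC lies on the strand opposite to the gene, as in all but the FTL match.

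HMOX1, 3 matches, chr22:35768002-35768117: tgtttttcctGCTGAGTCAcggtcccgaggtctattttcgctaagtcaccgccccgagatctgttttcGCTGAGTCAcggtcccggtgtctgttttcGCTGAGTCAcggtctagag
HMOX1, 3932 bases before the start site, chr22:35773139-35773167: gctagattttGCTGAGTCAccagtgcctc
FTL, 1359 bases before the start site, chr19:49467189-49467217: gagctcagcaTGACTCAGCagtcgctgcc
FTH1, 4409 bases before the start site, chr11:61739505-61739533: ctagcagagtGCTGAGTCAcggtgggaca
FECH, 279 bases before the start site, chr18:55254203-55254231: aaagttatttGCTGAGTCAtggctgagga

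In the shorter RefSeq windows of 250 bases before to 50 after the start site (GRCh38.p14), 8 of the 10 genes were found, all but HMOX1 and FTH1. None held this form of the core, which occurred in 0.561% of all windows. The FECH and FTL matches, at 279 and 1359 bases, lie more than 250 bases before their canonical start sites, so this result adds little to the first search. A match describes letters and was not tested for binding. Absence of a match means only that these exact letters were not in the stretch searched, not that a gene lacks an ARE.

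**Figure D1:**
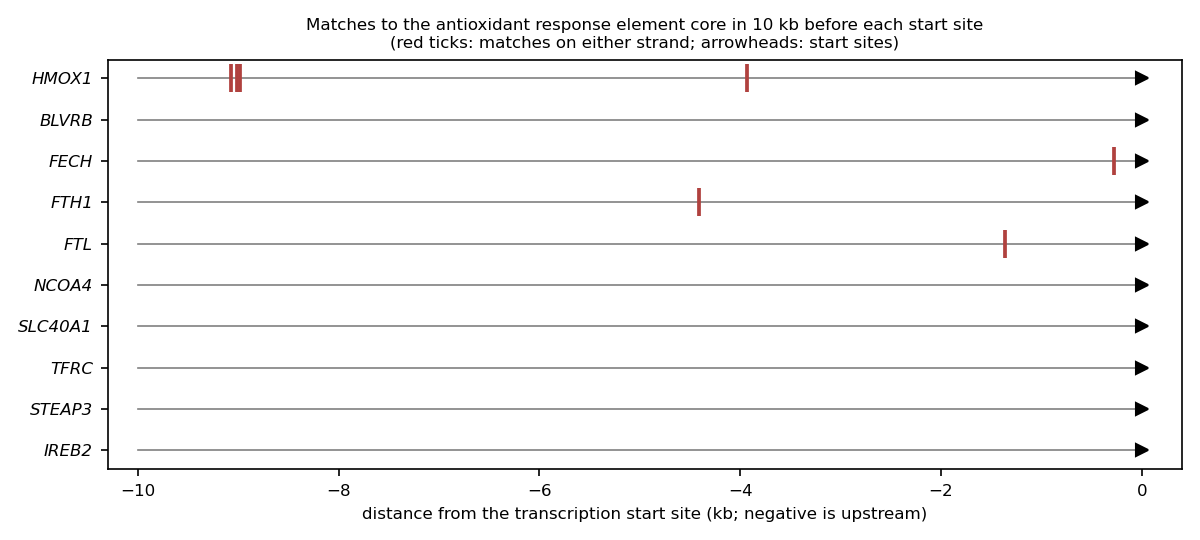
Matches to TGACTCAGC, the form of the ARE core searched, on either strand (red ticks) in the 10 kb before the start site (arrowheads) of each of the 10 genes, by distance in kb. HMOX1 has 4 matches, of which 3 lie near 9 kb, FTL, FTH1 and FECH have 1 each, and the other genes have none of this form.

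A library held between 27250993 and 44596870 reads on genes. Replicate 1 of NRF2 cells without Cyss stood apart in its share of reads outside genes, 7.84% against 5.82 to 6.69% in the 11 others. Its counts differed from those of replicate 3 by a chi-square of 13.1 per degree of freedom, against 2.24 to 7.19 for pairs within the other 3 groups. Replicate 2 differed from replicates 1 and 3 by 6.51 and 5.56, so the chi-square does not tell which of replicates 1 and 3 is apart. For the genes named at the start, differences called with replicate 1 of NRF2 cells without Cyss are also given without it. For the further genes followed in lists, only the numbers called are given without this library. Which of their calls were lost is therefore not shown. Ratios between genes were compared only with this library included. NFE2L2, the gene of NRF2, lay between 3647 and 3842 normalized counts in the presence of Cyss and between 4501 and 4655 in its absence in GFP cells, and between 6599 and 6940 and between 7401 and 8396 in NRF2 cells, so the 6 NRF2 libraries lay above the 6 GFP libraries. Of 5 mesenchymal markers, the sum was between 1112000 and 1218000 normalized counts in every library. Of 8 epithelial markers, EPCAM, CLDN3, CLDN7 and KRT19 were at or near 0 although the labels call the line epithelial, and the list's sum, most of it KRT18, was 942 to 1260 with Cyss and 1338 to 1699 without. The part of this marker difference in the results was not tested. The 5 erythroid markers, of interest because red cell precursors express heme genes highly, summed to between 0 and 1.22 normalized counts, and 5 macrophage markers to between 350 and 412. Most of the macrophage sum was CSF1R, with group means of 302 to 324. Normalized counts are shares of a library, so less RNA per cell and fewer expressing cells cannot be told apart.

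Per kilobase of canonical transcript, the mean level over the 12 libraries fell across 4 orders of size. FTL, the light chain of ferritin, led with 68296 normalized counts per kb, followed by TFRC, the receptor that takes up transferrin-bound iron, with 6101, and FTH1, the ferritin heavy chain that oxidizes iron, with 5193. HMOX1, which opens the heme ring, had 1912 and NCOA4, the receptor that delivers ferritin to autophagy, 1638. STEAP3, an endosomal iron reductase, and BLVRB, a reductase that acts on biliverdin and flavins, had 920 and 898. IREB2 had 379 and FECH, which puts iron into heme, 142. SLC40A1, the iron exporter ferroportin, had 4.2, from 5 to 21 reads per library. The level of FTH1 is uncertain in this order, because exons of BEST1 on the other strand covered 73.2% of its canonical transcript in GENCODE 44, and counting without regard to strand leaves a read in both genes unassigned. BEST1 itself had 9 to 32 reads per library. Reads that match a ferritin gene and a pseudogene equally were also left uncounted, and the 25 listed FTH1 pseudogenes held 15.6 to 20.9% of the reads of FTH1 and its pseudogenes together, and the 16 FTL pseudogenes 13.9 to 15% of those of FTL.

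**Figure D2:**
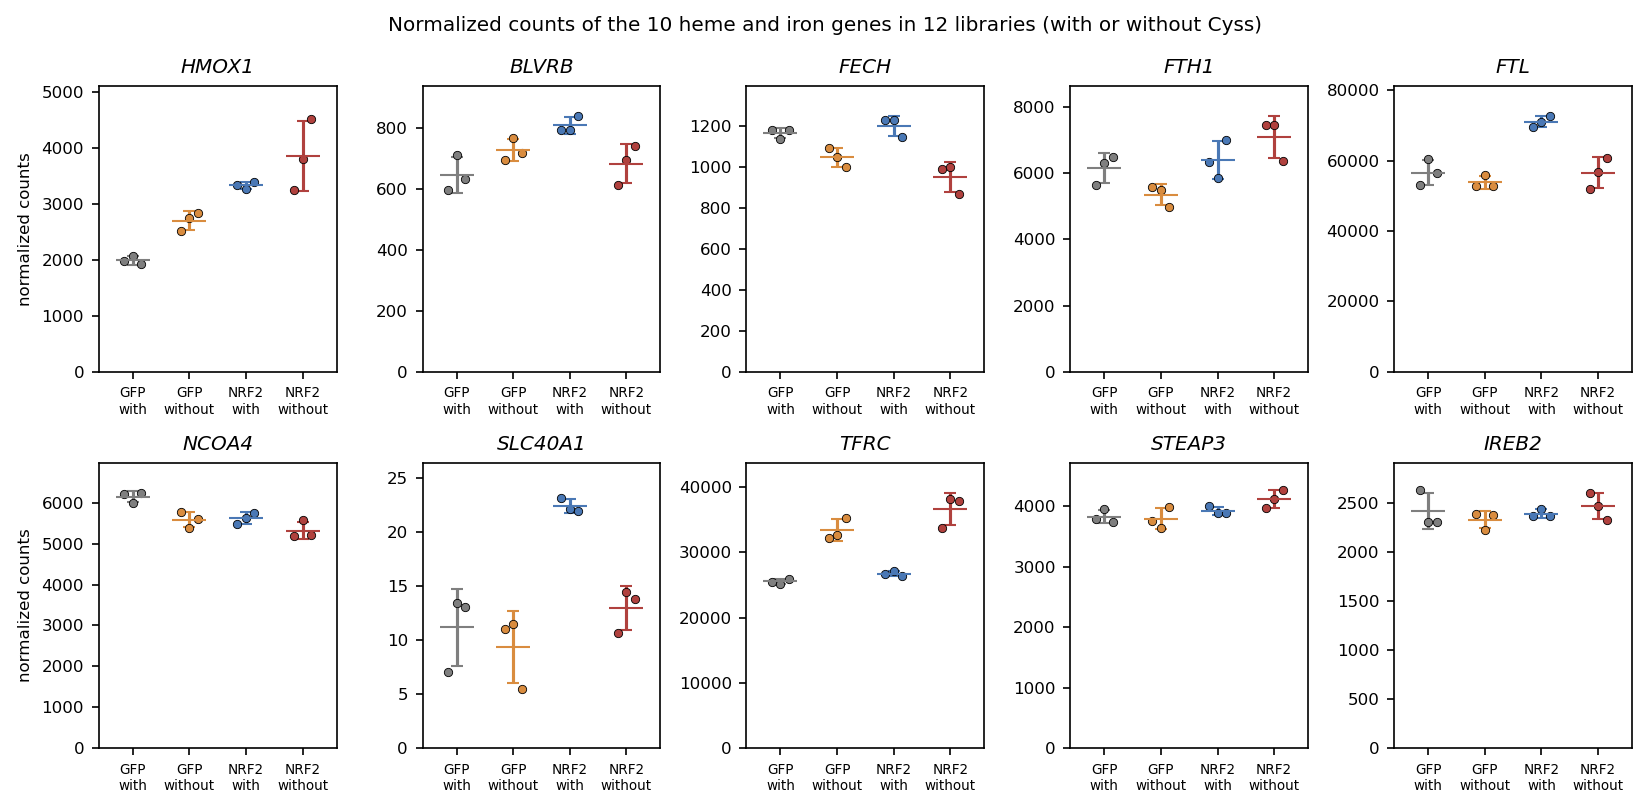
Normalized counts of each of the 10 genes (vertical axes, from 0) in the 12 libraries, by group; points are libraries, and bars the mean ± SD (n = 3). HMOX1 lies at 1926 to 2075 in GFP cells with Cyss and at 3252 to 4516 in NRF2 cells without Cyss, TFRC is higher in both groups without Cyss, and SLC40A1 is highest in NRF2 cells with Cyss at 21.9 to 23.2.

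Removal of Cyss from GFP cells raised HMOX1 and TFRC and lowered none of the 10 genes past the thresholds of a DEG, a log2FC beyond 0.32 in either direction at an adjusted p below 0.1. HMOX1 rose by a log2FC of 0.44 and TFRC by 0.38. Of all 17452 genes tested, 1.57% were upregulated and 0.533% downregulated DEGs. Among the 8 other genes, FTH1 (log2FC -0.20, adjusted p = 0.0726) and NCOA4 (-0.14, adjusted p = 0.0764) passed the adjusted p in edgeR's quasi-likelihood test but not the fold threshold, and 3 genes with lower counts had an unadjusted p under 0.05. DESeq2, which gave no adjusted p for SLC40A1 in any comparison, also called 0 lower. The median log2FC of the 10 genes was -0.064, against 0.0015 over all genes.

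In NRF2 cells, Cyss removal raised TFRC (log2FC 0.45) and lowered FECH (-0.34), FTL (-0.33) and SLC40A1 (-0.78). Among the 17266 genes tested there, 6.81% were upregulated and 5.14% downregulated DEGs, beside 1 and 3 of the 10 genes. Scaling by library size only changed the numbers over all genes from 1176 higher and 887 lower to 936 and 1397. HMOX1 (0.21, adjusted p = 0.0892) and BLVRB (-0.24, adjusted p = 0.0224) passed the adjusted p alone. The median of the 10 was -0.019, against -0.012 over all genes. With Cyss present, NRF2 cells had more HMOX1 (0.74), FTL (0.33) and SLC40A1 (0.98) than GFP cells, against 1.36% of 17449 genes higher and 0.201% lower. None of the 10 was a DEG in the lower direction by edgeR or DESeq2, and 1 gene with lower counts, NCOA4 (-0.13, adjusted p = 0.0652), had an unadjusted p under 0.05. Without Cyss, NRF2 cells had more HMOX1 (0.50) and FTH1 (0.39) than GFP cells, where 5.98% of 17297 genes were higher and 4.09% lower (1034 and 708, or 875 and 1001 when scaled by library size only). Again edgeR and DESeq2 called 0 of the 10 lower, with 1 at an unadjusted p under 0.05. The medians of the 10 were 0.06 with Cyss and 0.087 without, against -0.0039 and -0.016 over all genes. The 2 comparisons within a medium use the same libraries as the 2 within a cell type, so the 4 sets of calls are not independent of each other.

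**Figure D3:**
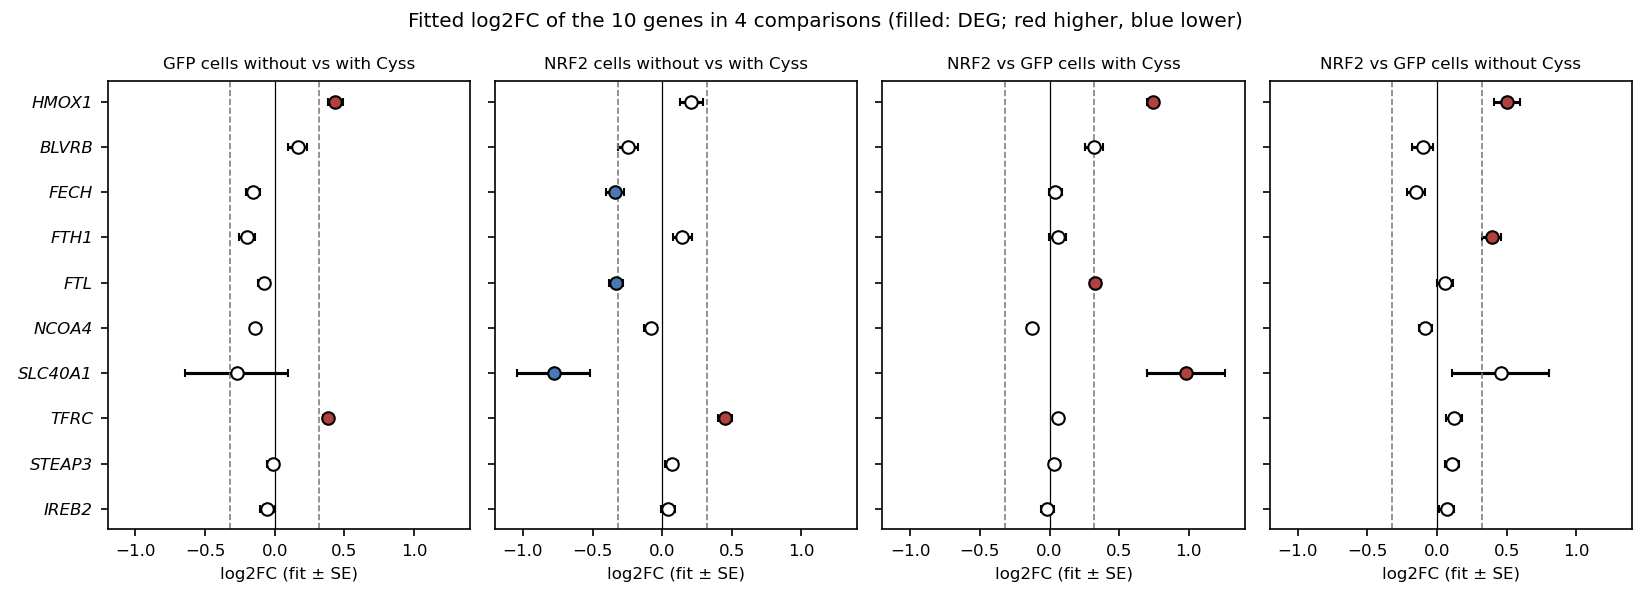
Fitted log2FC (horizontal axes) of the 10 genes in the 4 comparisons, with SE bars; filled points are DEGs, red higher and blue lower, and dashed lines mark a log2FC of 0.32 in size. HMOX1 and TFRC lie right of the line in GFP cells without Cyss, and FTL lies near the line in 2 comparisons, at -0.33 and 0.33.

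Heme breakdown was led by HMOX1 (chr22:35776354-35790207, plus strand, GRCh37). In GFP cells the 3 libraries with Cyss had 1979, 2075 and 1926 normalized counts, and those without Cyss 2517, 2745 and 2845. NRF2 cells had 3333, 3276 and 3393 with Cyss and 3252, 3805 and 4516 without. The first 3 groups did not overlap, while NRF2 cells without Cyss spread widely, with an SD of 634 around a mean of 3858, and their lowest library lay below all 3 with Cyss. In GFP cells the rise was 1.35-fold (log2FC 0.44, SE 0.051, adjusted p = 2.09e-04 by edgeR). The higher level in NRF2 cells had an adjusted p of 7.83e-09 with Cyss (SE 0.041) and 0.00378 without (SE 0.094). In NRF2 cells the rise of 0.21 (SE 0.084) would have been a DEG without replicate 1 of the group without Cyss (0.32, adjusted p = 4.42e-04), and was 0.082 without replicate 3. The higher level without Cyss was 0.62 without replicate 1 (adjusted p = 4.43e-04). The response in NRF2 cells minus that in GFP cells was -0.23 (SE 0.11, adjusted p = 0.225) and did not pass without replicate 1 (-0.12, adjusted p = 0.44). It passed with no filter on low counts (-0.22, adjusted p = 0.0442), and was -0.36 without replicate 3 of NRF2 cells without Cyss (adjusted p = 0.00718).

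BLVRB (chr19:40953672-40971671, minus strand) fell short of a DEG in each comparison, but its responses in the 2 cell types differed. The normalized counts of GFP cells were 596, 713 and 635 with Cyss and 697, 769 and 720 without. In NRF2 cells it had 793, 794 and 841 with Cyss and 615, 696 and 741 without, all below those with Cyss. The GFP libraries overlapped (log2FC 0.16, SE 0.07, adjusted p = 0.237). The response in NRF2 cells minus that in GFP cells was -0.41 (SE 0.1, adjusted p = 0.0211 in edgeR's interaction test), and this call held in all 12 fits that left out a library, at -0.34 without replicate 1 of NRF2 cells without Cyss. With Cyss, BLVRB was higher in NRF2 than in GFP cells in every library, but at 0.318 it lay just under the fold threshold. It passed when replicate 1 or 2 of NRF2 cells with Cyss (0.33 and 0.33) or replicate 2 of GFP cells with Cyss (0.39) was left out, and when counts were scaled by library size only (0.33).

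Heme synthesis was represented by FECH (chr18:55211609-55253964, minus strand). GFP cells had 1180, 1136 and 1178 normalized counts with Cyss and 1091, 1045 and 1000 without, and NRF2 cells 1226, 1228 and 1143 with Cyss and 988, 999 and 866 without. All libraries without Cyss lay below those with Cyss of the same cells. The fall passed in NRF2 cells (log2FC -0.34, SE 0.065, adjusted p = 0.00172 by edgeR) and not in GFP cells (-0.16, SE 0.05, adjusted p = 0.118), and the difference between the 2 responses did not pass (-0.18, adjusted p = 0.181), except when counts were scaled by library size only (-0.23, adjusted p = 0.0781). The call in NRF2 cells sat near the fold threshold. It was lost without replicate 1 (-0.318) or 2 (-0.317) of NRF2 cells with Cyss, or without replicate 3 of NRF2 cells without Cyss (-0.27), and was -0.36 without replicate 1 of the latter.

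Iron storage is given chain by chain. FTL (chr19:49468566-49470136, plus strand) had 69413, 71046 and 72742 normalized counts in NRF2 cells with Cyss, above all 9 other libraries. NRF2 cells without Cyss had 51981, 56793 and 60735. GFP cells had 52979, 60293 and 56507 with Cyss and 52765, 55781 and 52791 without. The last 3 groups overlapped. The higher level of NRF2 cells with Cyss was 0.33 over GFP cells (SE 0.041, adjusted p = 1.95e-04) and fell by 0.33 when Cyss was removed (SE 0.052, adjusted p = 3.37e-04, both by edgeR). The fall in GFP cells was smaller (-0.075, adjusted p = 0.393), and the difference of the responses passed (-0.26, SE 0.074, adjusted p = 0.0379). Both DEG calls lay near the fold threshold. The fall in NRF2 cells was lost without replicate 3 with Cyss (-0.317) or replicate 1 without Cyss (-0.27), and the higher level with Cyss was lost without replicate 3 of NRF2 cells (0.31), without replicate 1 of GFP cells (0.28), and with no filter on low counts or TMM computed before the filter (0.316 in both). The interaction was lost without replicate 3 of NRF2 cells with Cyss (-0.25, adjusted p = 0.1) or replicate 2 of GFP cells without Cyss (-0.23, adjusted p = 0.115), and was -0.20 without replicate 1 of NRF2 cells without Cyss (adjusted p = 0.059). FTLP3, the pseudogene row with the most reads, took the same course, with 11675 ± 424 normalized counts in NRF2 cells with Cyss and 8817 ± 696 without (SD, n = 3). Whether its reads came from FTL was not tested.

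FTH1 (chr11:61727190-61735106, minus strand) had, in GFP cells, 5633, 6306 and 6499 normalized counts with Cyss and 5586, 5487 and 4990 without. NRF2 cells had 6345, 5844 and 7012 with Cyss and 7440, 7455 and 6366 without. The GFP libraries without Cyss all lay below those with Cyss, while the NRF2 libraries overlapped and had the higher mean without Cyss. The log2FC was -0.20 in GFP cells (SE 0.055) and 0.15 in NRF2 cells (SE 0.07), and their difference passed (0.35, SE 0.1, adjusted p = 0.0388 by edgeR's interaction test). That call was lost without replicate 2 of NRF2 cells with Cyss (0.28, adjusted p = 0.112). Without Cyss, all NRF2 libraries lay above all GFP libraries (log2FC 0.39, SE 0.066, adjusted p = 0.00214). Without replicate 1 of NRF2 cells without Cyss these 2 values were 0.31 (adjusted p = 0.0737) and 0.36 (adjusted p = 0.004). With the reads of the pseudogene rows added to each ferritin gene, this difference was 0.34 and remained a DEG.

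NCOA4 (chr10:51565199-51590734, plus strand) had 5982 to 6242 normalized counts in GFP cells with Cyss, above the 5179 to 5764 of the other 9 libraries. It was no DEG in any comparison, with log2FCs between -0.14 and -0.08.

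Of the iron uptake genes, TFRC (chr3:195739382-195809024, minus strand) responded to Cyss removal in both cell types. GFP cells had 25546, 25238 and 25947 normalized counts with Cyss and 32234, 32612 and 35295 without. NRF2 cells had 26638, 27168 and 26393 with Cyss and 33777, 38174 and 37937 without. Every library without Cyss lay above every library with Cyss, in both cell types. The rise was 1.3-fold in GFP cells (log2FC 0.38, SE 0.038, adjusted p = 4.88e-05) and 1.37-fold in NRF2 cells (0.45, SE 0.05, adjusted p = 1.07e-05, both by edgeR), and the calls held in all 6 fits of each comparison that left out a library, the latter at 0.51 without replicate 1 of NRF2 cells without Cyss. The responses differed by 0.07 (SE 0.065, adjusted p = 0.547). Between NRF2 and GFP cells TFRC was no DEG with Cyss (0.063) or without (0.12). STEAP3 (chr2:119981407-120023228, plus strand) was no DEG anywhere, with 3641 to 4261 normalized counts over the 12 libraries and log2FCs from -0.014 to 0.11. Exons of STEAP3-AS1 on the other strand covered 11.7% of its canonical transcript.

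SLC40A1 (chr2:190425316-190448484, minus strand) was near the limit of detection. GFP cells had 7.05, 13.4 and 13.1 normalized counts with Cyss and 11, 11.5 and 5.5 without. NRF2 cells had 23.2, 22.2 and 21.9 with Cyss and 10.6, 14.4 and 13.8 without. The NRF2 libraries with Cyss lay above the other 9, which overlapped. The log2FC against GFP cells with Cyss was 0.98 (SE 0.28, adjusted p = 0.0676) and that of Cyss removal in NRF2 cells -0.78 (SE 0.26, adjusted p = 0.0467, both by edgeR). Both rest on few reads. The first call held only in the fit without replicate 2 of GFP cells with Cyss, and the adjusted p was between 0.135 and 0.204 without each of the other 5 libraries, whose log2FCs ran from 0.75 to 1.08. The second was lost without any of the 3 replicates with Cyss (log2FC -0.76, -0.79 and -0.80) or replicate 1 without Cyss (-0.66), with adjusted p-values between 0.105 and 0.126.

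IREB2 (chr15:78729773-78793795, plus strand) encodes an iron regulatory protein and had 2224 to 2623 normalized counts over the 12 libraries. All 4 groups overlapped, its log2FCs lay between -0.052 and 0.068, and it was no DEG in any comparison.

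Ratios of reads per kilobase within a library do not depend on how libraries are scaled. The size of the ratios with FTH1 is as uncertain as its level, because BEST1 exons cover much of its transcript. The ratio of FTL to FTH1 was 13, 13.2 and 12 in GFP cells with Cyss and 13, 14 and 14.6 without. In NRF2 cells it was 15.1, 16.8 and 14.3 with Cyss and 9.65, 10.5 and 13.2 without, so that the 3 libraries without Cyss lay below those with, at 0.717 of their geometric mean. With the pseudogene reads added, the ratio in NRF2 cells was 14.7 ± 1.43 with Cyss and 10.7 ± 1.77 without (SD, n = 3). The ratio of TFRC to FTL, of an uptake transcript to a storage transcript, was 0.0838, 0.0727 and 0.0798 in GFP cells with Cyss and 0.106, 0.102 and 0.116 without. In NRF2 cells it was 0.0667, 0.0665 and 0.0631 with Cyss and 0.113, 0.117 and 0.109 without. Without Cyss it was 1.37-fold higher in GFP cells and 1.72-fold in NRF2 cells, with no overlap of libraries. The ratio of TFRC to FTH1 was 1.5-fold higher without Cyss in GFP cells, without overlap, and 1.24-fold in NRF2 cells, where the libraries overlapped. These 3 ratios were chosen after the counts were seen, and 3 libraries against 3 cannot give an exact permutation p under 0.1, which the comparisons without overlap reached and which does not pass 0.05.

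The 2 cell types differed in their response to Cyss removal for 3 of the 10 genes, FTH1 in the higher direction and FTL and BLVRB in the lower, in edgeR's interaction test. Over 17674 genes, 8.97% passed in the higher and 6.13% in the lower direction, at an adjusted p under 0.1 with no fold threshold. The median interaction of the 10 was -0.061, against -0.013 over all genes. Scaled by library size only, 1126 genes passed higher and 1981 lower, against 1585 and 1084.

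Beyond these 10 genes, 93 further genes of heme and iron metabolism were followed in 8 lists. All 93 were found in the tables, 6 of them under older symbols, and 79 or 80 had enough counts for the test. In GFP cells, Cyss removal raised 2 of 79 and lowered 1, where 1.57% and 0.533% of all genes were called. Those raised were MAFF (log2FC 0.38, adjusted p = 0.0555), a small MAF protein, and ERFE (0.34, adjusted p = 0.0188), the hormone that lowers hepcidin, listed as FAM132B. Neither was called when replicate 3 of GFP cells with Cyss was left out. The gene lowered was ALAS1 (-0.34, adjusted p = 2.99e-04), the rate-limiting enzyme of heme synthesis outside red cells. ALAS1 had 1918, 1953 and 1976 normalized counts with Cyss and 1578, 1519 and 1526 without. With Cyss present, NRF2 cells differed from GFP cells in 0 of 79 in either direction by edgeR and by DESeq2, where 1.36% of all genes were higher and 0.201% lower, with 10 listed genes higher and 2 lower at an unadjusted p under 0.05.

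In NRF2 cells, Cyss removal raised 9 of 80 and lowered 7, where 6.81% and 5.14% of all genes were called, and 10 and 4 without replicate 1 of NRF2 cells without Cyss. Among the repressor and its small MAF partners, 3 of 5 rose and 0 fell, with a median log2FC of 0.51 against -0.012 over all genes. BACH1 had 1310, 1297 and 1218 normalized counts with Cyss and 1818, 1960 and 1782 without (log2FC 0.54, adjusted p = 5.52e-06). MAFF went from 706 to 750 up to 1356 to 1699 (1.06, adjusted p = 1.10e-07), and MAFK rose by 0.51, whereas MAFG, at -0.027, did not pass. In GFP cells BACH1 was at 0.14 and did not pass. Of the 9 iron uptake, reduction and transport genes tested, 3 rose and 0 fell, namely SLC39A14 (0.52), a metal importer of the cell surface, and the metalloreductases STEAP1 (0.65) and STEAP2 (0.46). Of 3 other transcripts reported to carry an IRE, EPAS1 (0.51), a hypoxia-inducible factor, and CDC14A (0.43), a phosphatase, rose.

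Falls in NRF2 cells lay in other lists. Of 31 genes of iron-sulfur cluster assembly, 3 fell and 0 rose, where 5.14% of all genes were lower and 6.81% higher. The 3 were the scaffold ISCU (-0.34) and the later-acting ISCA2 (-0.44) and BOLA3 (-0.34). The median of this list was -0.093, against -0.012 over all genes. Replicate 1 without Cyss was the lowest of its group for ISCU (1389 normalized counts, against 1571 and 1682) and BOLA3 (303, against 404 and 459). For ISCA2 it was not (212, against 199 and 218). Without replicate 1, 4 genes of all lists were called lower instead of 7, so not all of these calls held. Which were lost is not given here. Of 12 heme breakdown and transport genes, BLVRA (-0.34), the main biliverdin reductase, and SLC46A1 (-0.47), a folate transporter that can also carry heme, fell, the latter with overlapping libraries. Of 11 heme synthesis genes 1 fell, ABCB6 (-0.48), a porphyrin transporter. The median of this list was -0.143, against -0.012 over all genes. ALAS1 was lower without overlap of libraries (-0.18, adjusted p = 0.0238 by edgeR), but not past the fold threshold. Of 5 iron sensing and hepcidin control genes, HFE (-0.42), which binds the transferrin receptor, fell and BMP6 (1.69), which induces hepcidin, rose, from 9.75 to 18.6 normalized counts with Cyss to 28.7 to 59.3 without. Of 4 genes of ferritin handling and iron chaperones, 0 were called in either direction by edgeR or DESeq2.

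Without Cyss, NRF2 cells had 9 of 80 genes higher than GFP cells and 3 lower. The background was 5.98% and 4.09% of all genes, and without replicate 1 of NRF2 cells without Cyss the counts were 8 and 1. Those higher were BACH1 (0.38), MAFF (0.72), MAFK (0.47), STEAP1 (0.51), STEAP2 (0.57), EPAS1 (0.36), CDC14A (0.33), BMP6 (0.99, with overlapping libraries) and PROM2 (1.09), a membrane protein linked to ferritin export. PROM2 had 11 normalized counts in NRF2 cells and 5.03 in GFP cells, so it passed the filter on low counts only through the group where it was high, and its call supports nothing, which leaves 8. The 3 lower were ISCA2 (-0.41), BOLA3 (-0.38) and NFU1 (-0.35), which delivers iron-sulfur clusters. BOLA3 and NFU1 were lowest in replicate 1 of NRF2 cells without Cyss, NFU1 with 685 normalized counts against 736 and 794. With that library left out, 1 listed gene was called lower, so the 3 calls did not all hold. Which were lost is not given here. The interaction passed for 10 of 80 genes in the higher direction and 9 in the lower, beside 8.97% and 6.13% of all genes (10 and 6 without that library), among them BACH1 (0.40, adjusted p = 0.00424), MAFF (0.68, adjusted p = 0.00561), EPAS1 (0.33), ABCB6 (-0.49) and ISCU (-0.37). For BMP6 it did not pass (1.02, adjusted p = 0.178).

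By Pearson's r of log2 normalized counts over the 12 libraries, given as a description since the points share 4 groups, the genes most like HMOX1 among 17673 were P4HB (r = 0.962) and CTNS (0.949). Those most like TFRC were MARK3 (0.989) and GADD45A (0.982). FTL was most like its pseudogene FTLP3 (0.985), which may share its reads, and PGD (0.985), an enzyme of the pentose phosphate pathway and a known NRF2 target. FTH1 was most like ESYT1 (0.955) and RNPEPL1 (0.926), FECH like CXCL12 (0.982) and BARD1 (0.98), and SLC40A1 like RP4-668J24.2 (0.924) and RPS6KA1 (0.915).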

How the data were processed

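RNA-seq was available for 12 libraries of Hs 578T cells in 4 groups of 3. The authors aligned single-end reads on hg19 with TopHat2 2.1.0, and HTSeq 0.11.2 counted uniquely placed reads on exons, ignoring strand. The authors deposited raw counts per gene symbol, and the annotation version is not given in the sources used here. The 10 genes and the lists were chosen with earlier results of these data known.

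Of 55765 symbols, 523 rRNA genes were removed. Each comparison was fitted on its 6 libraries and the interaction on 12, with TMM scaling. A gene was tested if its normalized counts averaged 10 or more in 1 of the groups. The test was quasi-likelihood in edgeR, with p-values adjusted by Benjamini-Hochberg over all genes tested. R 4.3.3, edgeR 4.0.16, DESeq2 1.42.0 (an alternative; the study used DESeq2) and Python 3.11.15 were used. The procedure was tested on simulated data. Normalized counts printed per library come from 1 scaling of all 12. The genes named are the 10, every listed gene called in a comparison or the interaction, NFE2L2, the ferritin pseudogenes, and the 2 genes most like each called gene. MAFG and LYRM4, and the 3 ratios, were chosen after their values were seen. Replicate numbers did not pair the libraries. Alternatives were other scalings, filters, tests and thresholds, a fit of all 12 libraries, a block for the replicate number, and each library left out. TMM before the filter and the addition of pseudogene reads were added after the data were examined.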

Additional observations from a re-analysis of the deposited data

Results flagged for a closer look

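The genes below are listed because their responses to Cyss removal in NRF2 and GFP cells differed in edgeR's interaction test. Values are the response in NRF2 cells minus that in GFP cells, on the log2 scale.

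Of the 10 genes, FTH1 had an interaction of 0.35, FTL of -0.26 and BLVRB of -0.41. Of the repressor and its partners, BACH1 had 0.40 and MAFF 0.68. Of the iron uptake, reduction and transport genes, SLC39A14 had 0.34, STEAP1 0.42, STEAP2 0.40 and SLC25A37, which brings iron into mitochondria, 0.24. The iron chaperone PCBP1 had 0.18 and the iron sensor ACO1 0.20, while HFE had -0.27. EPAS1 had 0.33 and CDC14A 0.39. Of the heme genes, PPOX had -0.43, ABCB6 -0.49, TMEM14C -0.21 and BLVRA -0.23. Of iron-sulfur cluster assembly, ISCU had -0.37, ISCA2 -0.38, NFU1 -0.26 and BOLA3 -0.46.

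LYRM4, a partner of the cysteine desulfurase of cluster assembly, is listed because every library without Cyss lay above those with Cyss in GFP cells (log2FC 0.043) and below them in NRF2 cells (-0.11). Its interaction did not pass (-0.15, adjusted p = 0.189 by edgeR).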

How the results depend on the processing

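Among the settings other than a left-out library, the counts of the 10 genes called moved by over 1.5 times only without the fold threshold, to 2 lower in GFP cells, 2 higher in NRF2 cells and 1 lower in NRF2 against GFP cells with Cyss. Without that threshold, listed genes called became 5 higher and 3 lower in GFP cells, 14 higher and 18 lower for NRF2 cells, 2 and 2 in NRF2 against GFP cells with Cyss and 16 and 18 without. An adjusted p under 0.05 left 1 listed gene higher in GFP cells and 6 in the interaction, and scaling by library size gave 6 lower in NRF2 against GFP cells without Cyss and 17 in the interaction. The cause was not tested.

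With each library left out, the 10 genes called ranged from 1 to 2 higher and 1 to 3 lower in NRF2 cells, 1 to 4 higher in NRF2 against GFP cells with Cyss, and 0 to 1 higher and 1 to 3 lower in the interaction. Listed genes ranged from 0 to 2 higher and 1 to 2 lower in GFP cells, 4 (without replicate 1 of NRF2 cells without Cyss) to 7 lower in NRF2 cells, 1 (without the same library) to 5 lower in NRF2 against GFP cells without Cyss, and 4 (without replicate 2 of GFP cells without Cyss) to 11 higher and 5 to 12 lower in the interaction.

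Directions reversed only for log2FCs that were not called. With a library left out, STEAP3 in GFP cells ranged from -0.050 to 0.014 (0.0097 and 0.014 without replicate 2 with and without Cyss) and IREB2 from -0.085 to 0.015 (the latter without replicate 1 with Cyss). For NRF2 cells, IREB2 was -0.015 when scaled by library size. In NRF2 against GFP cells with Cyss, FTH1 ranged from -0.012 (without NRF2 replicate 3; -0.0018 without GFP replicate 1) to 0.12 and IREB2 from -0.049 to 0.048 (without GFP replicate 1). FTL there was 0.32 with no filter and with TMM before the filter.

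The replicate number as a block left 2 of the 10 genes higher in GFP cells, as before, and no count moved by over 1.5 times. Same-numbered libraries correlated between -0.026 and 0.14, and in each comparison 1 of 3 correlated best with its own number. DESeq2 gave no adjusted p for SLC40A1, so its 2 genes lower in NRF2 cells and 2 higher in NRF2 against GFP cells with Cyss leave that gene out. Few reads limit the precision of SLC40A1, BMP6 and PROM2.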
